A study of Mus musculus with 17 samples.

Results

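The genes described here encode the respiratory chain and ATP synthase: protein-coding genes whose symbol begins with Nduf (followed by a, b, c, s or v), Uqcr, Cox4 to Cox8 or Atp5, the genes Sdha to Sdhd and Cyc1, and the protein-coding genes of the mitochondrial genome. A gene was kept if it reached 1 CPM (counts per 1000000 counts of a library) in at least 2 libraries of a table. Of 108 genes with such a symbol, 97 were kept, out of 57638 gene IDs in the 2 deposited count tables, and 95 of them were kept in both tables. The table of tissue and bulk organoids kept 89 nuclear and 8 mitochondrial genes, and that of the clones 88 and 7. Cox6b2 and mt-Co2 were kept in the tissue table alone. The 11 gene IDs that were not kept belonged to Cox4i2, Cox6a2, Cox7b2, Cox8b, Cox8c, mt-Nd3, mt-Nd4l, mt-Co3, mt-Atp6 and mt-Atp8, with 1 further ID named Atp5o.

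RNA was sequenced from mouse lacrimal gland, the gland that makes the watery part of tears, and from organoids, which are small epithelial structures grown from it in a gel of basement membrane extract. One table holds wildtype gland tissue (n = 3), uncloned (bulk) wildtype organoids kept for 7 days in expansion medium (EM, n = 3), and the same lines after 2 days in EM followed by 5 days in a second medium meant for differentiation (DM, n = 3). The other holds 2 wildtype (WT) clonal lines and 2 lines labelled as Pax6 knockout (KO), each in EM and in DM. The protocol gives the clones the same 2 and 5 days for DM, whereas the series text gives 7 days in each medium, so the time of the clones in DM is uncertain. Each clonal line is 1 clone, the labels give no age, sex or strain of the mice, and they do not say whether lines 6, 7 and 8 came from separate animals. The p-values therefore measure the spread between these samples, which may be partly technical. Pax6, which encodes an eye and lacrimal gland transcription factor, was at 245 and 276 CPM in the WT clones in EM and at 172 and 272 in the KO-labelled clones in EM, and at 219 and 280 against 135 and 309 in DM. The transcript level therefore gave no check of the knockout labels, since a small mutation can leave it in place.

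Oxidative phosphorylation passes electrons from NADH and succinate to oxygen and uses the energy to make ATP. Complex I takes electrons from NADH, complex II (which is also an enzyme of the citric acid cycle) from succinate, complex III hands them to cytochrome c, complex IV gives them to oxygen, and complex V, the ATP synthase, makes ATP from the proton gradient. Complex II is built from nuclear genes alone, and the other complexes mix many nuclear subunits with a few core subunits encoded in the mitochondrial genome. Secretion of tear fluid needs ATP for ion pumping, which these complexes supply in the gland's epithelium.

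Total counts were 12801473 to 19207469 per library in the tissue table and 18282059 to 22500534 in the clone table. In the gland, the 10 most abundant other genes took 65.5% to 67.6% of all counts, against 5.44% to 7.3% in the organoids, so CPM levels below use library sizes after TMM scaling, which centres the folds of the bulk of genes. Fold changes are log2 values with a standard error, from edgeR's quasi-likelihood test, and a gene was called higher or lower where p, after Benjamini-Hochberg adjustment across every gene tested, was under 0.05. Scaling by the total count alone moved the median of all genes by 2.06 between EM and gland and by 1.97 between DM and gland. Statements on the gland are therefore relative to the median gene, and the split under total counts is given beside them. The summed CPM of marker genes for fibroblasts (all 6 detected in the gland) was 656 to 788 in the gland and at most 0.569 in the organoids, where Col1a2 was at 0. Immune markers gave 310 to 411 and at most 10.3, with Ptprc at 0 in all organoids. Acinar markers gave 15344 to 15950 in the gland and 240 to 726 in the organoids, and basal and ductal markers 1014 to 1029 and 7509 to 15661. Endothelial and pericyte markers gave 57.5 to 74.7 in the gland and 1.17 to 86.3 in the organoids, and myoepithelial markers 296 to 312 and 1.26 to 230. All 6 endothelial and pericyte markers reached a mean of 1 CPM in the gland, but only 1 to 3 did in each organoid group. Of the 10 acinar markers 4 or 5 did in each organoid group, and of the 6 myoepithelial markers 0 to 4 did. The sums of these 3 lists in the organoids therefore rest on few genes. The part of all these marker groups in the differences from the gland was not tested. In bulk samples, fewer cells of a type and less RNA per cell cannot be told apart.

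The mouse nuclear genome holds copies of mitochondrial DNA, and reads that match a gene and its copy equally well cannot be assigned to one of them. Of the 13 mitochondrial protein-coding genes, mt-Co2, mt-Co3, mt-Atp6, mt-Nd4l and mt-Nd3 share 98% to 100% of their 50-base stretches with another annotated gene, and none of these 5 exceeded a group mean of 2 CPM per kb of exon. Their copies lie side by side on the minus strand of chromosome 1, between 24612407 and 24615565 (GRCm38), and are annotated as unprocessed pseudogenes. The gene for cytochrome oxidase subunit 3 and its copy Gm28437 were identical over all 783 aligned bases. A 100-base stretch of both, taken from chrM:8948-9047 (plus strand) and chr1:24613531-24613630 (minus strand), holds no base that differs:
mt-Co3: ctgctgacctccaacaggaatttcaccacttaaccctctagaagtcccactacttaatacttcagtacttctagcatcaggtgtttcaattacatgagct
Gm28437: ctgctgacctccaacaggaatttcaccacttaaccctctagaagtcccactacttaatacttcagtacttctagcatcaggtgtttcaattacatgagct
Over the aligned bases of mt-Co2 (681), mt-Atp6 (678) and mt-Nd4l (294) no mismatch was found either, and 344 of 345 bases matched for mt-Nd3.

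The mt-Nd2 gene, for a core subunit of complex I, shares little of its sequence. Its copy Gm13339 on chromosome 2 matched 493 of 510 aligned bases, and 8.19% of the 50-base stretches of mt-Nd2 occurred in another gene. In a 100-base stretch at chrM:4647-4746 (plus strand) and chr2:22590229-22590328 (minus strand), 5 bases differ, printed in capitals:
mt-Nd2: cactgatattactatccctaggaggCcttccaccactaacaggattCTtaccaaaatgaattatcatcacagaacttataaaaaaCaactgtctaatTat
Gm13339: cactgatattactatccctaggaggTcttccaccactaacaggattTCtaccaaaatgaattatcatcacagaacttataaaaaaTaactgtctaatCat
Between these lie mt-Nd4, with 62.2% of its stretches shared (876 identical bases of its 1378), and mt-Co1, with 51.1% shared (482 of 483 aligned bases identical, from base 1063 of the gene). Over all libraries mt-Nd4 was counted at 454 to 1711 CPM and mt-Co1 at 4729 to 8027 CPM. The genes mt-Nd1, mt-Nd6 and mt-Cytb share no 50-base stretch with another gene. Neither does mt-Atp8, which had no count in any library. Only annotated genes were searched, so a copy of mt-Atp8 between those of its neighbours mt-Atp6 and mt-Co2 (chr1:24614651-24614885) was not checked. The copies themselves held 0 to 14 counts each over all libraries of the clone table, so their reads were not moved to the copies there. Values of the 5 genes with near-complete copies are therefore no measure of expression, and those of mt-Co1 and mt-Nd4 rest on part of the gene. Of the 5, mt-Co2 still enters the counts and medians of the 8 mitochondrial genes of the tissue table below. It was not called in any main comparison, but it is among the genes higher than the gland under total-count scaling (1.45 in EM and 1.32 in DM).

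**Figure D1:**
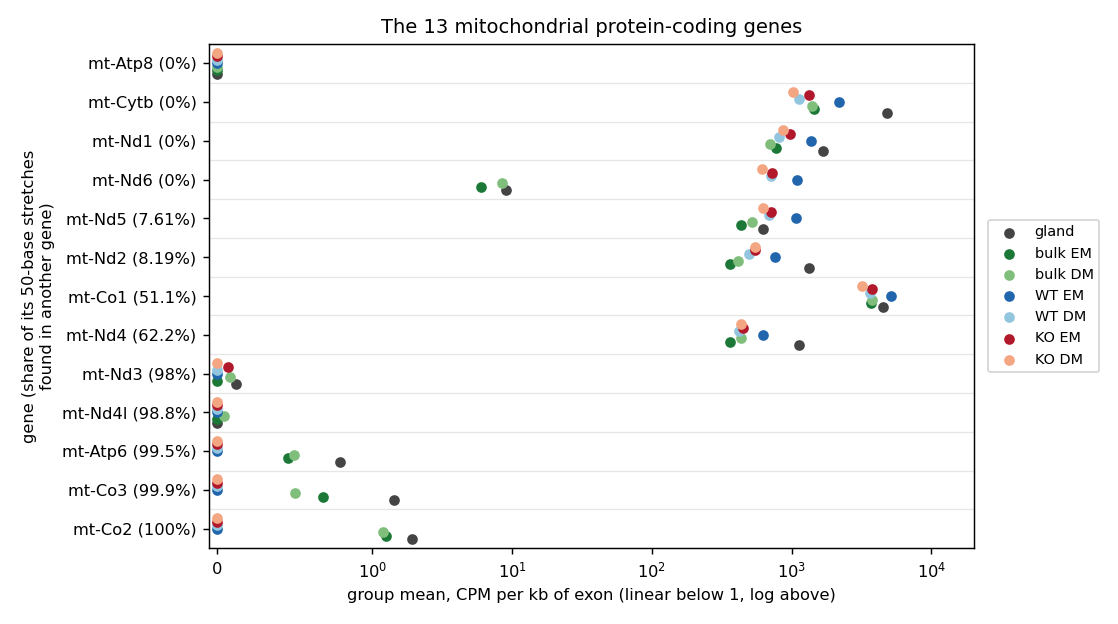
Group mean level of each of the 13 mitochondrial protein-coding genes (horizontal axis, CPM per kb of exon, linear below 1 and logarithmic above) by gene, ordered by the share of its 50-base stretches found in another gene (in parentheses). The 5 genes with 98% or more shared sequence lie at or near 0 in all 7 groups, whereas mt-Co1 with 51.1% and mt-Nd4 with 62.2% are among the counted genes.

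The mt-Nd6 gene differed between the tables. It is the only protein-coding gene on the other strand of the mitochondrial genome (chrM:13552-14070), and it was counted at 2.12 to 7.02 CPM in the tissue table and at 289 to 604 CPM in the clone table. Other mitochondrial genes did not show such a gap: mt-Nd5, its neighbour, ranged from 728 to 1236 CPM and from 1056 to 2110 CPM. The strand setting used for counting is not given in the sources used here, so a difference in counting was not tested, and the tables were never compared in a test. Exons of 10 members overlap those of a gene on the opposite strand over at least 10% of their bases, such as Ndufaf2 (65.6%), Ndufb6 (39%) and Ndufa13 (30%). Ndufb11 (12.9%), Cox5a (12.8%), Atp5j (12.7%) and Ndufb5 (12.3%), named below, are also among them. The counts of these 10 are uncertain for the same reason.

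Organoids in EM had lower levels of most complex I and complex V genes than the gland, relative to the median gene. Of the 89 nuclear genes, 14 were higher and 53 lower, beside 37.4% of all 13713 genes tested that were higher and 37.4% that were lower. The median log2 fold change was -0.45 for the nuclear genes and 0.01 for all genes tested. With scaling by total counts, 87 nuclear genes were higher and 1 lower. Complex I had 1 higher and 26 lower of 36 subunits (median -0.50), and complex V had 2 higher and 11 lower of 17 (median -0.48). Complex III had 2 higher and 5 lower of 9 (median -0.35). Complex II, with 2 higher and 1 lower of 4 (median 0.24), and complex IV, with 6 higher and 5 lower of 15 (median 0.11), were mixed. Under total-count scaling the genes higher were 36 of 36 in complex I, 4 of 4 in complex II, 8 of 9 in complex III, 15 of 15 in complex IV and 16 of 17 in complex V, beside 83.8% of all genes tested.

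The largest nuclear difference was in Uqcrb, which encodes a ubiquinone-binding subunit of complex III (chr13:66900617-66905378). It was at 448, 424 and 426 CPM in the 3 gland libraries and at 72.1, 73.6 and 65.4 CPM in EM (log2 fold change -2.62 ± 0.09, adjusted p = 8.15e-10). It stood at 74.2, 69.5 and 61.5 CPM in DM, so gland and organoids did not overlap. Uqcrb was the 1 nuclear gene that stayed lower under total-count scaling. Other annotated genes, with the pseudogene Gm16089 holding the most, share 25.5% of the 50-base stretches of Uqcrb, so its level is uncertain to that extent. Atp5j, for coupling factor 6 in the stalk of the ATP synthase, was at 308, 297 and 294 CPM in the gland and at 79.2, 85.2 and 78.7 CPM in EM (-1.89 ± 0.09, adjusted p = 9.94e-09). These libraries again did not overlap, although under total-count scaling Atp5j turned to 0.18. Ndufb11, an accessory subunit of complex I, fell from 153, 136 and 137 CPM to 49.7, 59 and 55.9 CPM (-1.37 ± 0.09), and Ndufs6 by a log2 fold change of -1.26 ± 0.09. Both turned positive under total-count scaling.

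Against this direction, a set of subunits was higher in EM. Total-count scaling could not check this, since it moves the median gene up by 2.06 and so raises these folds as well. Cox6a1, the widely expressed form of a regulatory complex IV subunit, was at 96.1, 73.1 and 84.5 CPM in the gland and at 119, 123 and 140 CPM in EM (0.59 ± 0.11, adjusted p = 0.000366). Uqcrc1, a core protein of complex III, was at 99.4, 93.1 and 98.6 CPM and then 138, 144 and 140 CPM (0.54 ± 0.07, adjusted p = 4.56e-05). Neither pair of groups overlapped. In complex II the membrane anchors Sdhc (0.35) and Sdhd (0.38) rose while the iron-sulfur subunit Sdhb fell from 106, 101 and 99 CPM to 60.9, 61 and 56.5 CPM (-0.78 ± 0.08, adjusted p = 3.09e-06), although under total-count scaling Sdhb was at 1.28. Members of 1 complex thus moved in opposite directions relative to the median gene.

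Mitochondrial transcripts were lower in EM than in the gland relative to the median gene for 5 of 8 genes and higher for none (median -0.85), while under total-count scaling 7 were higher and none lower. At an unadjusted p under 0.05 edgeR also gave 0 higher, and DESeq2 called 0 higher and 5 lower. The mt-Cytb gene, for cytochrome b of complex III, was at 5898, 5412 and 5078 CPM in the gland and at 1515, 1758 and 1718 CPM in EM (-1.72 ± 0.15, adjusted p = 1.02e-06). The mt-Nd2 gene was at 1450, 1395 and 1306 CPM against 359, 398 and 371 CPM (-1.88 ± 0.13, adjusted p = 1.54e-07). All EM libraries lay below all gland libraries for both. The mt-Co1 gene, for the catalytic subunit of complex IV, was at 7389, 7140 and 6256 CPM against 5382, 6372 and 5365 CPM. These groups overlapped and the gene was not called (-0.28 ± 0.16, adjusted p = 0.128, and 1.78 under total-count scaling), though a fit of the gland and EM libraries alone gave an adjusted p of 0.041.

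The mitochondrial genes were therefore not lowered alike, and this does not depend on how libraries are scaled, since counts are compared within a library. The mt-Co1 gene took 38%, 39.1% and 37.8% of the mitochondrial counts in the gland and 58.7%, 59.5% and 56.8% in EM. In DM it took 58.2%, 56.3% and 58.2%, and in the clones between 48.5% and 56.4%. All 14 organoid libraries lay above the 3 gland libraries. The ratio of mt-Cytb to the nuclear complex III genes was 4.24 ± 0.227 in the gland and 1.95 ± 0.144 in EM (SD, n = 3), whereas that of mt-Co1 to the nuclear complex IV genes was 4.62 ± 0.277 and 4.46 ± 0.407. No test was run on these ratios.

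Counts on mitochondrial genes per count on nuclear members were 2.18, 2.23 and 1.99 in the gland and 1.36, 1.56 and 1.4 in EM. In DM they were 1.98, 1.65 and 1.44. The gland did not overlap with EM or DM, whereas EM and DM overlapped with each other. The clones ranged from 1.21 to 1.57. Without mt-Co1, mt-Nd4 and the other genes with a copy on chromosome 1 the ratio was 1.13 ± 0.0608 in the gland, 0.525 ± 0.0303 in EM and 0.617 ± 0.0965 in DM (SD, n = 3).

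**Figure D2:**
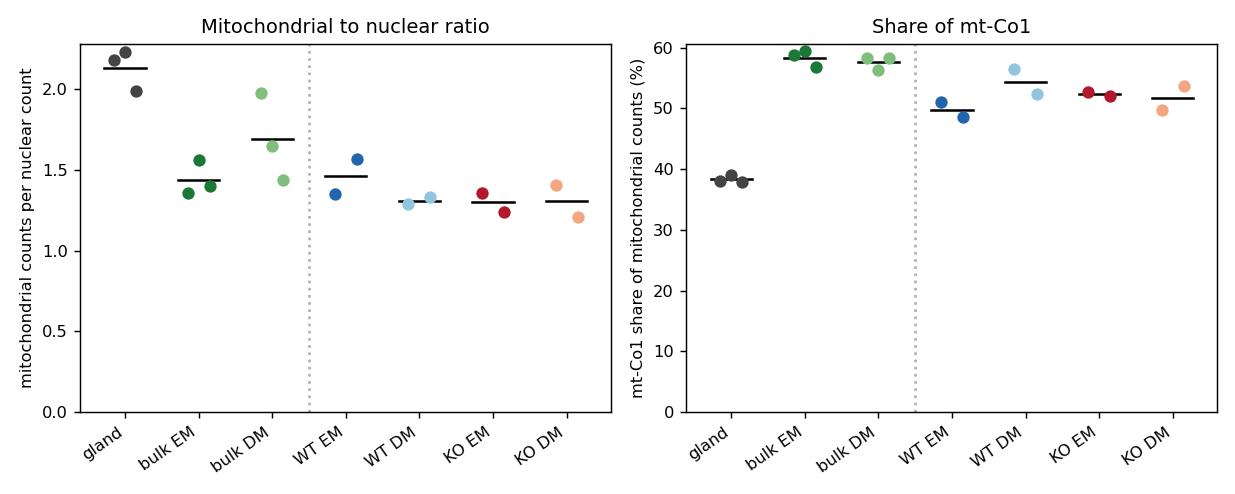
Mitochondrial counts per count on nuclear members (left) and the share of mt-Co1 in mitochondrial counts in percent (right), by library (points) with the mean of each group (bar). The dotted line divides the separately counted tables. In the gland the ratio is 1.99 to 2.23 and the mt-Co1 share 37.8% to 39.1%, and every organoid library has a larger mt-Co1 share.

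DM against the gland, which uses the same gland libraries, gave 4 nuclear genes higher and 63 lower, with medians of -0.50 for these genes and 0.02 for all genes. Among all genes tested 38.1% were higher and 37.4% lower. Total-count scaling again gave 87 higher and 1 lower for the nuclear genes and 7 higher and none lower for the mitochondrial genes, of which 4 of 8 were lower relative to the median gene (median -0.94). None was higher, also at an unadjusted p under 0.05 in edgeR and with DESeq2. Complex I had 30 of 36 subunits lower, complex III 8 of 9, complex V 12 of 17 and complex II 2 of 4, relative to the median gene. Complex IV had 6 of 15 lower and 2 higher (median -0.12), a share of lower genes near that of all genes. Under total-count scaling 36, 4, 8, 14 and 17 genes of complexes I to V were higher, beside 84% of all genes tested. The higher genes included Ndufa4l2, Uqcrc1 (0.38) and the complex IV subunit Cox5a (0.21). Cox5a was not called without DM library 6 or 7 or gland library 6 or 7 (adjusted p up to 0.125).

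Ndufa4l2 had the largest positive difference of all members. It encodes a relative of the complex IV subunit Ndufa4 and is known as a gene induced in low oxygen. The gland libraries had 1.6, 0.547 and 0.643 CPM of it (9, 3 and 5 counts), the EM libraries 6.68, 10.3 and 6.54 CPM and the DM libraries 8.25, 16.6 and 11.7 CPM. Gland and organoids did not overlap (EM against gland 3.11 ± 0.45, adjusted p = 6.18e-05). Ndufa4 itself was at 226, 176 and 189 CPM in the gland and at 104, 115 and 110 CPM in EM (-0.84 ± 0.11, adjusted p = 2.17e-05, but 1.22 under total-count scaling). Per kb of exon, Ndufa4l2 made up 0.884%, 0.391% and 0.427% of the pair in the gland, 7.53%, 10.1% and 6.96% in EM and 8.03%, 17% and 11.1% in DM. The 2 WT clones differed from each other: WT 1 had 5.3% in EM and 3.61% in DM, and WT 2 had 39.6% and 40.9%. The KO-labelled clones had 28.7% and 15.4% in EM and 24.4% and 28.3% in DM, which lies between the WT clones, and Ndufa4l2 was not called in any clone comparison.

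**Figure D3:**
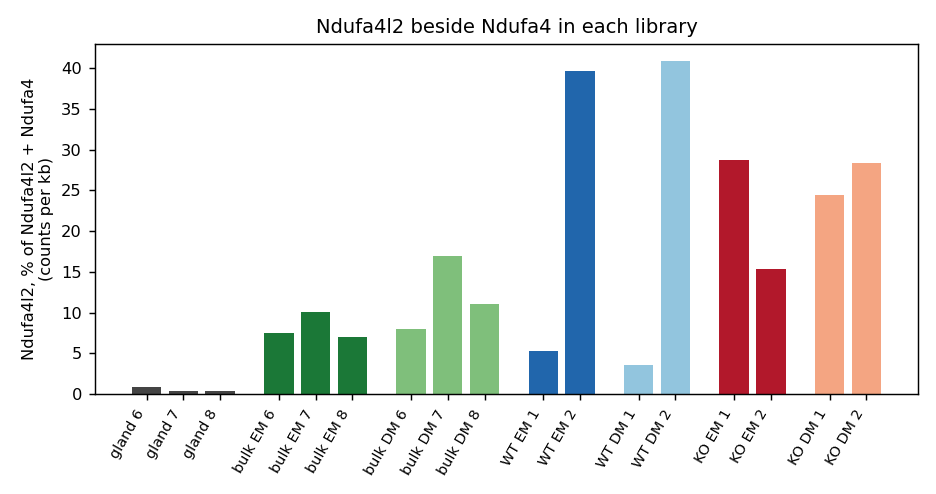
Ndufa4l2 as a percentage of Ndufa4l2 plus Ndufa4, both as counts per kb of exon, in each of the 17 libraries (bars, coloured by group). The gland libraries are under 1%, the bulk organoids at 6.96% to 17%, and the WT clones at 3.61% to 40.9% with clone 2 the highest in both media.

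Most tissue-restricted alternative subunits were near the floor in all groups. Cox6a2 and Cox8b, which replace subunits in muscle, had at most 4 counts in any library. So did Cox7b2, an alternative to Cox7b, and Cox4i2, a lung and low-oxygen form. Cox7a1, the alternative to Cox7a2, had at most 20 counts in any library of the tissue table and 32 in the clone table. Cox6b2, best known from testis, was called higher in EM than in the gland (2.17) from 2, 0 and 6 counts in the gland and 35, 78 and 33 in EM, and lower in DM (-2.22 ± 0.58, adjusted p = 0.0143) with 3, 20 and 6 counts. The second call was lost without DM library 6 (adjusted p = 0.0591) or EM library 7 (adjusted p = 0.0702), and the first without EM library 7 or gland library 6 or 7 (adjusted p 0.0659 to 0.0728).

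The comparison of media asked what differentiation conditions do to the organoids. In bulk organoids, DM had 23 of 89 nuclear genes lower than EM and none higher, whereas 13.2% of all genes tested were lower and 17.2% higher. The nuclear median was -0.14 and that of all genes 0.00. Complex II had 3 of 4 genes lower, complex III 3 of 9, complex IV 4 of 15, complex V 4 of 17 and complex I 9 of 36. At an unadjusted p under 0.05 edgeR gave 3 nuclear genes higher, and DESeq2 called 0 higher and 22 lower. The count of lower genes was 15 without DM library 7, 14 without EM library 7 and 15 without EM library 8. Over all genes tested the lower calls were 1806 with every library and 1151, 1185 and 1170 in these 3 fits.

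The 4 genes lower in DM in bulk organoids, WT clones and KO-labelled clones alike were Cox6a1, Cyc1, Sdhd and Uqcr10, named after their values were seen. In the bulk lines Cox6a1 was at 119, 123 and 140 CPM under EM, against 76.6, 75 and 82.4 CPM under DM (-0.71 ± 0.10, adjusted p = 0.000529). In the clones it went from 199 and 208 to 112 and 141 CPM (WT, -0.69 ± 0.13, adjusted p = 0.0164) and from 147 and 168 to 105 and 104 CPM (KO-labelled, -0.59 ± 0.13, adjusted p = 0.0415). In none of the 3 did EM and DM overlap. The call in WT clones was lost in a fit of the WT libraries alone (adjusted p = 0.0681), without the DM library of WT 1 (0.0506) and without the EM library of WT 1 (0.0686) or WT 2 (0.0746). In KO-labelled clones the calls of Cox6a1, Sdhd and Uqcr10 were each lost without any 1 of the 4 KO-labelled libraries, at adjusted p of 0.106 to 0.223, 0.0595 to 0.0885 and 0.0875 to 0.13. That of Cox6a1 was also lost without the EM library of WT 1 (0.0687) or WT 2 (0.0678).

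Cyc1, for cytochrome c1 of complex III, was at 101, 98.5 and 104 CPM in EM and at 66.2, 67.4 and 79.4 CPM in DM in the bulk lines (-0.51 ± 0.09, adjusted p = 0.00182). Its levels were 155 and 143 against 103 and 102 CPM in WT clones and 119 and 124 against 81.9 and 88.1 CPM in KO-labelled clones. Uqcr10, a small complex III subunit, was at 70, 71.9 and 68.9 CPM against 55, 46.8 and 47.3 CPM in the bulk lines (-0.50 ± 0.10, adjusted p = 0.00412). Every EM library lay above every DM library of its kind for both genes. Uqcr10 was at 136 and 116 against 67.4 and 72.6 CPM in WT clones and at 89.1 and 88.1 against 56.6 and 59.8 CPM in KO-labelled clones. Sdhd, a membrane anchor of complex II, was at 96.2, 96.6 and 84.8 CPM against 74.9, 73.7 and 75.1 CPM in bulk organoids (-0.31 ± 0.08, adjusted p = 0.0175). It was at 181 and 170 against 107 and 101 CPM in WT clones (-0.76 ± 0.10) and at 135 and 120 against 83.6 and 77.9 CPM in KO-labelled clones (-0.66 ± 0.10), again without overlap.

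Promoters of 3 of these 4 genes are shown because the genes moved together, with the 250 bases before the start on the strand of the gene (RefSeq, GRCm38.p6). They lie at chr5:115348959-115349208 (Cox6a1, minus strand), chr9:50603850-50604099 (Sdhd, minus strand) and chr11:4704345-4704594 (Uqcr10, minus strand). Capitals mark exact matches, on either strand, to sites of factors known for respiratory chain genes: GCGC then any base then TGCGC for NRF1, CCGGAAG for ETS factors such as GABP, and AAGATGGC for YY1.
Cox6a1: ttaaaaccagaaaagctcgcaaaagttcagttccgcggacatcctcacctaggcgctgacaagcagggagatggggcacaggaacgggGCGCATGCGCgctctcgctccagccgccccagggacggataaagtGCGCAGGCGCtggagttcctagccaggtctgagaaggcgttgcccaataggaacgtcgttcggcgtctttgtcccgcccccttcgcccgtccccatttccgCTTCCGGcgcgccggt
Sdhd: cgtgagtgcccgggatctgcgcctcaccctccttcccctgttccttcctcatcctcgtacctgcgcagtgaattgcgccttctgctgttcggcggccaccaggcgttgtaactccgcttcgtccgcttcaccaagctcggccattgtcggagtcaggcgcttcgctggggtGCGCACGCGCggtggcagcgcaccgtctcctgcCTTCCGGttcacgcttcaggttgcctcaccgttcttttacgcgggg
Uqcr10: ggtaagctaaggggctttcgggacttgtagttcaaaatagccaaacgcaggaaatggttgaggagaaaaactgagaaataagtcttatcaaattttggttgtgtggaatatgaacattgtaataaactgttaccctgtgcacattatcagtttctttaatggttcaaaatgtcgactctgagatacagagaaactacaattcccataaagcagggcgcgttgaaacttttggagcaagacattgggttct
Cox6a1 held 2 NRF1 matches (the first bases 162 and 117 before the start) and 1 ETS match, Sdhd held 1 of each, and Uqcr10 held none of the 3. Over windows from 250 bases before to 50 after a start, 72 of the nuclear members matched, with 77 windows. The NRF1 letters occurred in 20 of 77 windows (26%) and in 4.6% of all 32851 windows. ETS letters occurred in 23.4% and 8.86%, and YY1 letters in 13% and 2.75%. Between members lower in any DM against EM comparison (32 with a window) and the other 40, NRF1 letters occurred in 25% and 27.5% and ETS letters in 25% and 25%. YY1 letters occurred in 2 of 32 and 8 of 40. These are counts of letters, with no test of binding.

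In WT clones, DM had 33 of 88 nuclear genes lower than EM and none higher, beside 6.13% of all 14282 genes tested lower and 9.61% higher. The nuclear median was -0.40 and that of all genes was 0.00 to 2 decimals. Complex IV had 8 of 14 lower, complex V 7 of 17, complex III 5 of 9, complex II 3 of 4 and complex I 10 of 36. The EM libraries had 94.8 and 91.3 CPM of Ndufb11 and the DM libraries 45.1 and 51.2 CPM (-0.95 ± 0.10, adjusted p = 0.00253). Uqcrh, the hinge protein of complex III, was at 322 and 277 against 155 and 156 CPM (-0.95 ± 0.11, adjusted p = 0.00384). Neither overlapped between media. At an unadjusted p under 0.05 edgeR gave 1 nuclear gene higher, and DESeq2 called 0 higher and 40 lower. The count of lower genes fell without the DM library of WT 1 or the EM library of WT 1 or WT 2. Lower calls over all genes tested fell in these fits as well. The count was 7 in a fit of the WT libraries alone, where 262 of all genes were lower.

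The bulk and WT clone comparisons share no samples, and 15 genes were lower in both, which is 15 of the 23 in the bulk lines and 15 of the 33 in the WT clones. The overlap of calls over all genes tested was not counted, here or for the KO-labelled clones below, so these overlaps have no reference. In KO-labelled clones, 7 of 88 nuclear genes were lower in DM and none higher, beside 3.41% of all genes lower and 4.94% higher, and all 7 were among the 33 of the WT clones. They were Sdhd, Uqcr10, Cox6a1, Ndufv3, Ndufb11, Cyc1 and Uqcrh, at -0.66 to -0.47. The nuclear median was -0.21, against 0.00 for all genes. DESeq2 called 0 higher and 10 lower, and edgeR gave 0 higher at an unadjusted p under 0.05. The count of lower genes fell without any 1 of the KO-labelled libraries or either WT library in EM, as did lower calls over all genes tested.

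Within each line, the DM library was compared with its EM library. The median over nuclear genes was -0.05, -0.19 and -0.19 in bulk lines 6, 7 and 8, with 53, 69 and 78 of 89 genes lower. The median over all genes tested was 0.00, -0.01 and 0.00 in these lines. The nuclear median was -0.51 and -0.27 in the WT clones, with 83 and 80 of 88 lower. It was -0.18 and -0.26 in the KO-labelled clones, with 72 and 82 lower. The median over all genes lay between -0.01 and 0.01 in each clone. All 4 complex II genes were lower in DM in all 7 lines, and all 9 complex III genes were lower in each of the 4 clones. The share of all genes lower within a line was not counted, so these counts have only the medians of all genes beside them. Bulk line 6 was the least changed, with a nuclear median close to that of all genes.

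In the bulk lines none of 8 mitochondrial genes was called between DM and EM (median 0.10), none had an unadjusted p under 0.05, and DESeq2 called 0, while without DM library 8 edgeR called 2 higher. Their summed CPM went from 9166 to 12048 in line 6, from 10705 to 9580 in line 7 and from 9450 to 8457 in line 8, so it rose in 1 line and fell in the other 2. No test of the mitochondrial against the nuclear genes was run. In the WT clones 3 of 7 were lower in DM and none higher (median -0.61). Levels of mt-Cytb were 2361 and 2665 CPM with EM and 1177 and 1384 CPM with DM (-0.97 ± 0.19, adjusted p = 0.0168), with no overlap. The other 2 were mt-Nd1 (-0.78 ± 0.16, adjusted p = 0.0204) and mt-Nd5 (-0.64 ± 0.17, adjusted p = 0.0497). All 7 had an unadjusted p under 0.05 and DESeq2 called all 7 lower. None was called without the DM library of WT 1 or the EM library of WT 1 or WT 2. A fit with the clone as a replicate block called 6, and one of the WT libraries alone 1. In the KO-labelled clones edgeR and DESeq2 called none of 7 (median -0.21) and none had an unadjusted p under 0.05.

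**Figure D4:**
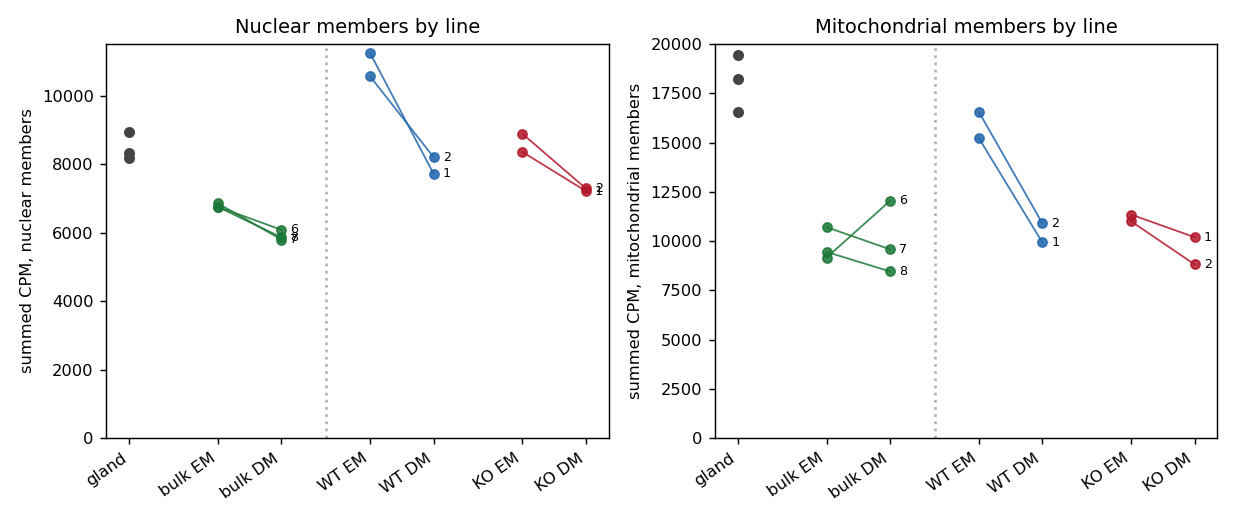
Summed CPM of the nuclear members (left) and of the mitochondrial members (right) in each library, with lines joining EM and DM of 1 line, numbered as in the labels. The nuclear sum is lower in DM in all 7 lines, for example 11248 to 7723 in WT 1 and 6760 to 6088 in bulk line 6, whereas the mitochondrial sum is higher in DM in bulk line 6.

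Markers of dividing cells were lower in DM without overlap in both kinds of clone, whereas in bulk organoids the ranges of the 2 media overlapped. The summed CPM of 5 such markers, all detected in each group, was 855 to 977 in EM and 372 to 910 in DM in bulk organoids, 230 to 299 and 47.7 to 148 in WT clones, and 327 to 449 and 74.6 to 90.5 in KO-labelled clones. Basal and ductal markers were at 7509 to 7781 in EM and 10714 to 13603 in DM in the bulk lines, and the 6 myoepithelial markers at 6.13 to 7.22 and 137 to 230. In WT clones basal and ductal markers were at 9543 to 10443 in EM and 12402 to 14953 in DM, and myoepithelial markers at 1.43 to 3.7 and 11.7 to 30.1. In KO-labelled clones basal and ductal markers were at 11626 to 13372 and 12761 to 15661, which overlap, and myoepithelial markers at 1.26 to 1.67 and 32.1 to 36.8. Acinar markers were higher in DM in bulk organoids (240 to 259 against 368 to 457) and WT clones (251 to 287 against 332 to 578) and lower in KO-labelled clones (710 to 726 against 414 to 475). Only 4 or 5 of the 10 acinar markers reached a mean of 1 CPM in each group. Of the 6 myoepithelial markers, 1 did in bulk EM and 4 in bulk DM, and 0 in EM and 2 in DM in either kind of clone. These sums are therefore not a shift of whole marker sets. The part of any of these in the lower respiratory chain levels was not tested.

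**Figure D5:**
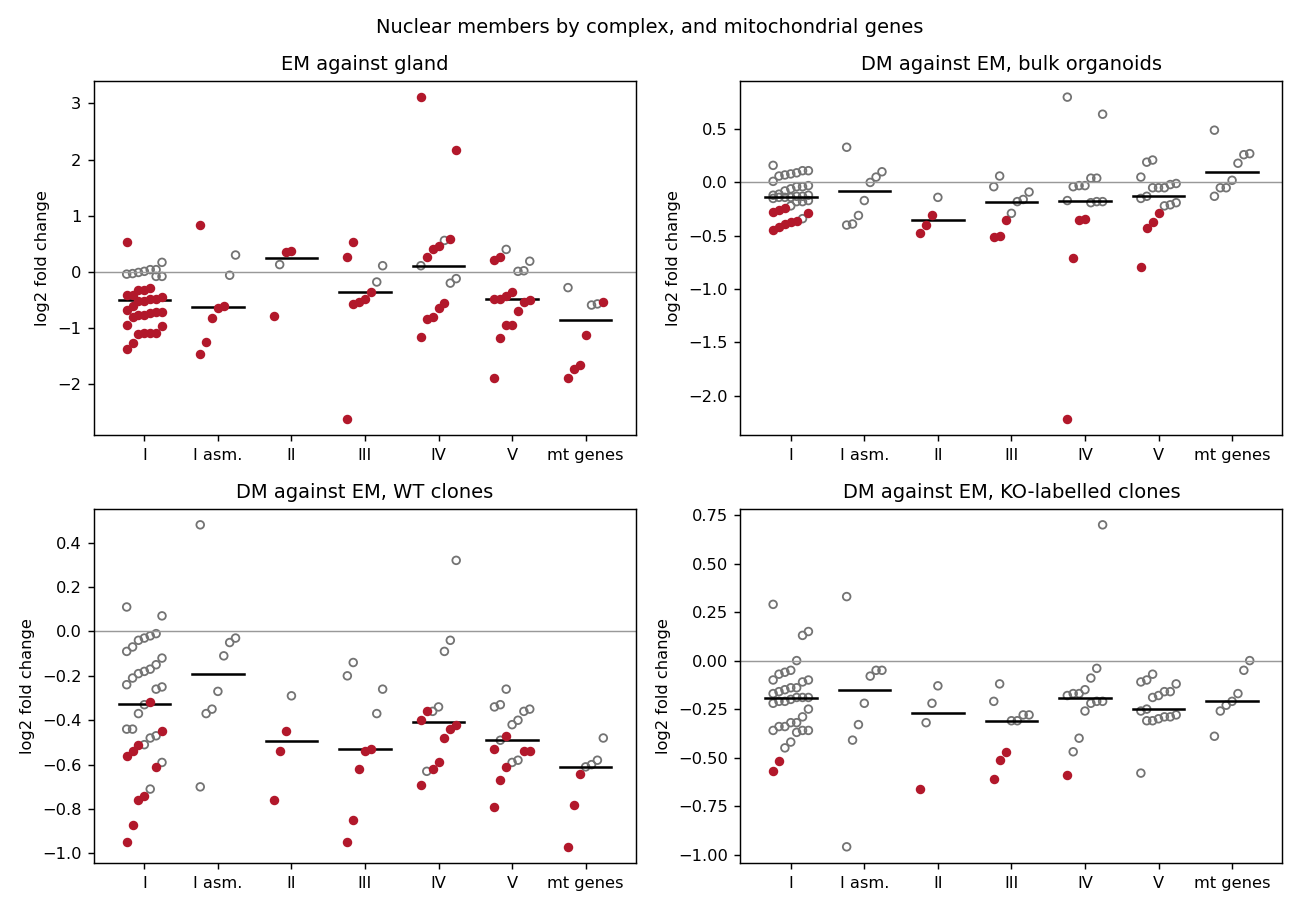
Log2 fold change (vertical axis, a different range in each panel) of each nuclear member by complex, of complex I assembly factors and of the mitochondrial genes, in 4 comparisons. Filled points are genes called by edgeR, open points are not called, and bars are medians. The EM against gland panel is relative to the median gene and lies higher under total-count scaling, with a nuclear median of 1.61 there in place of -0.45, and in the 3 panels of DM against EM every called gene is below 0.

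The comparison of KO-labelled with WT clones asked what loss of Pax6 does, and it shares its WT libraries with the comparisons of media above. In EM, 14 of 88 nuclear genes were lower in the KO-labelled clones and none higher, beside 4.41% of all genes lower and 5.38% higher. The median was -0.28 for nuclear genes and 0.01 for all genes. Complex III had 5 of 9 lower, complex II 2 of 4, complex IV 3 of 14, complex I 3 of 36 and complex V 1 of 17. Uqcrh was at 322 and 277 CPM in WT and at 183 and 167 CPM in KO-labelled clones (-0.77 ± 0.11, adjusted p = 0.0107). Cox7a2, a small complex IV subunit, was at 132 and 115 against 84.2 and 81.2 CPM (-0.58 ± 0.10, adjusted p = 0.0164), and Uqcrfs1, the Rieske iron-sulfur protein of complex III, was lower by a log2 fold change of -0.57 ± 0.09. Uqcrh and Cox7a2 did not overlap between genotypes. At an unadjusted p under 0.05 edgeR gave 1 nuclear gene higher, and DESeq2 called 0 higher and 21 lower.

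Cell type markers differed between the genotypes in EM as well. The summed CPM of acinar markers was 251 to 287 in WT and 710 to 726 in KO-labelled clones, that of basal and ductal markers 9543 to 10443 and 11626 to 13372, and that of dividing cells 230 to 299 and 327 to 449. None of these ranges overlapped. All 8 basal and ductal and all 5 dividing-cell markers were detected, and 7 of 10 acinar markers, with Cfd, Prol1 and Lcn11 at 0 in both genotypes. Of the acinar markers, 5 reached a mean of 1 CPM in each genotype. The part of these markers in the result was not tested. The counts also rest on few libraries. The 14 became fewer without any 1 of the EM libraries or without either KO-labelled library in DM. Lower calls over all genes tested also fell in each of these fits, so the loss is not particular to these genes. The mitochondrial genes had a median of -0.51 and none of 7 was called, although all 7 had an unadjusted p under 0.05 and were lower, and DESeq2 called 6. One was called without the DM library of WT 2.

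In DM, 1 of 88 nuclear genes was lower and none higher, beside 3.08% of all genes lower and 2.39% higher, and the median was -0.10 against -0.01 for all genes. The gene was Ndufa6, for an accessory subunit of complex I, at 181 and 177 CPM in WT and at 128 and 132 CPM in KO-labelled clones (-0.46 ± 0.10, adjusted p = 0.0485). It was also lower in EM, at 164 and 169 against 127 and 108 CPM (-0.50 ± 0.10, adjusted p = 0.0284), without overlap in either medium. The call in DM was lost without any 1 of the 8 libraries. At an unadjusted p under 0.05 edgeR gave 3 nuclear genes higher, and DESeq2 called 1 higher and 4 lower. Among the mitochondrial genes edgeR and DESeq2 called none, with none at an unadjusted p under 0.05 (median -0.13).

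The difference between genotypes in the effect of medium was tested as an interaction. edgeR called no gene of the table (0% of all genes higher and 0% lower), whereas DESeq2 called 39 higher and 156 lower over all genes and a replicate block in edgeR 6 and 64. None of the members was among these. The nuclear median was 0.15, against -0.02 for all genes, and 10 nuclear genes had an unadjusted p under 0.05, all positive, meaning a smaller fall in KO-labelled clones. The smallest p-values belonged to Ndufb5 (0.54 ± 0.15, adjusted p = 0.43) and Ndufb11 (0.43 ± 0.14, adjusted p = 0.51). For the 7 mitochondrial genes the median was 0.53 and 1 had an unadjusted p under 0.05. The larger number of lower genes in WT than in KO-labelled clones is therefore not shown to be a difference between them.

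Genes around the respiratory chain were counted in lists by function. Their counts stand beside the shares of all genes tested, which were 37.4% higher and 37.4% lower in EM against gland and 38.1% and 37.4% in DM against gland. In DM against EM, 13.2%, 6.13% and 3.41% of all genes were lower and 17.2%, 9.61% and 4.94% higher in bulk organoids, WT clones and KO-labelled clones. In KO-labelled against WT clones 4.41% were lower and 5.38% higher in EM, and 3.08% and 2.39% in DM. A count of 0 to 3 genes in a list of this size is not read as a result about it. Among 11 regulators of mitochondrial gene expression, 8 were higher and 2 lower in EM than in the gland and 6 and 2 in DM, and 3, 3 and 2 were lower and none higher in DM than in EM in bulk organoids, WT clones and KO-labelled clones. Ppargc1a, a coactivator known for raising mitochondrial gene expression, was at 6.31, 8.37 and 8.4 CPM in EM and at 0.154, 0.192 and 1.86 CPM in DM in bulk organoids (-3.33 ± 0.61, adjusted p = 0.00212). It was at 17.5 and 9.8 against 0.641 and 1.25 CPM in WT clones (-3.86 ± 0.43, adjusted p = 0.00331) and at 13.4 and 12.4 against 1.18 and 1.54 CPM in KO-labelled clones (-3.24 ± 0.42, adjusted p = 0.00962). EM and DM did not overlap in any of the 3. Esrrg, for a nuclear receptor that works with this coactivator, was lower in DM in bulk organoids (-1.25 ± 0.28) and WT clones (-1.80 ± 0.48). Hif1a, for the oxygen-regulated factor HIF-1 alpha, was at 212 and 162 CPM in WT and 332 and 411 CPM in KO-labelled clones in EM (0.99 ± 0.17, adjusted p = 0.0173), and was the 1 regulator called there. In DM it was called again (0.96 ± 0.17), as was Esrrg (2.24 ± 0.48).

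The citric acid cycle list had 6 of 14 genes higher and 7 lower in EM than in the gland, near the shares of all genes, and 3 and 8 in DM. In DM against EM it had 7, 7 and 1 lower and none higher. Idh2, the mitochondrial NADP-linked isocitrate dehydrogenase, was at 162 and 177 CPM in WT and at 58.4 and 70.9 CPM in KO-labelled clones in EM (-1.39 ± 0.13, adjusted p = 0.00467). It was 1 of 3 genes of that list lower there, and the 1 lower in DM. Of 14 genes for cytochrome c and coenzyme Q synthesis, 3 were higher and 8 lower in EM than in the gland and 4 and 9 in DM, and 1 higher in each DM against EM comparison with 3, 2 and 2 lower. The higher one was each time Coq10b, a coenzyme Q binding protein (1.43, 0.97 and 0.64), and Coq9, needed for coenzyme Q synthesis, was each time among the lower ones (-0.69, -0.87 and -0.54). KO-labelled against WT clones had none called in either medium.

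Genes that bring pyruvate into mitochondria or divert it had 7 of 14 higher and 7 lower in EM than in the gland and 6 and 7 in DM, so both directions were somewhat above the shares of all genes. Ldha, lactate dehydrogenase A, was at 113, 113 and 127 CPM in the gland and at 1510, 1356 and 1456 CPM in EM (3.61 ± 0.11, adjusted p = 2.23e-10). In the comparisons of media, 2, 1 and 1 of these genes were lower and none higher, and 2 were lower in KO-labelled clones in EM and none called in DM. The nucleotide and proton carriers had 6 of 7 higher in EM than in the gland, and 5 in DM, with none lower. Slc25a4, an ATP-ADP exchanger, was at 24, 15.7 and 19.8 CPM in the gland and at 153, 153 and 144 CPM in EM (2.92 ± 0.13). In DM against EM 1, 3 and 0 carriers were lower, and 1 was lower in KO-labelled clones in EM and none in DM.

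The mitochondrial ribosome had 9 of 76 genes higher and 47 lower in EM than in the gland (median -0.51), and 9 and 50 in DM, more lower and fewer higher than among all genes. In the comparison of media it had 3 higher and 6 lower in bulk organoids (median 0.01), against 2 lower of 77 in WT clones and 1 lower in KO-labelled clones. KO-labelled clones had 1 lower in each medium. Protein import had 2 of 22 higher and 13 lower in EM than in the gland and 2 and 11 in DM, then 1, 2 and 0 lower between media, and 2 lower and 0 called between genotypes in EM and DM. Genes of mitochondrial DNA upkeep had 3 of 20 higher and 9 lower in EM against gland, 2 and 8 in DM, and 2, 1 and 0 lower between media, with 1 higher in KO-labelled clones in EM and none called in DM. Assembly factors with other symbols had 5 of 39 higher and 18 lower in EM against gland, 2 and 18 in DM, 2 higher and 5 lower between media in bulk organoids, none called in either clone comparison of media, and 1 higher in KO-labelled clones in EM and none called in DM. For DNA upkeep and these assembly factors the share lower was near that of all genes in both gland comparisons, and fewer were higher. The splits against the gland are relative to the median gene. Under total-count scaling, with 83.8% of all genes higher in EM and 84% in DM, the counts higher in EM and DM were 11 and 9 regulators, 14 and 13 citric acid cycle genes, 13 and 12 for cytochrome c and coenzyme Q, 12 and 12 for pyruvate, 7 and 7 carriers, 76 and 76 of the ribosome, 21 and 19 of import, 19 and 19 of DNA upkeep and 38 and 37 assembly factors. The lower ones were 1 and 2 pyruvate genes and none in the other lists. No list had a gene called in the interaction by edgeR.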

How the data were processed

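Per the labels' protocols, RNA was extracted from gland tissue and organoids and libraries were made with a stranded kit for polyadenylated RNA. STAR alignment to GRCm38 and counting with featureCounts are named in the submitters' processing notes. Versions, strand setting, read length and annotation release: not given in the sources used here. Values deposited by the authors are whole-number counts per gene ID, not normalised. The tissue table holds 38293 IDs, of which 36429 matched GENCODE M21, and that of the clones 55487, of which 55227 matched; IDs without a match held 0.313% and 0.00821% of counts and were kept in the library totals.

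Each table was fitted alone in R 4.3.3 with edgeR 4.0.16 (filterByExpr, trimmed mean of M-values, 1 mean per group, quasi-likelihood test), leaving 13713 and 14282 genes, 6 and 4 residual degrees of freedom with biological coefficients of variation at 0.138 and 0.234. The Benjamini-Hochberg adjustment ran over all genes tested, and the fit was tested on simulated data. The membership rule used CPM from the total count, without further scaling. Shared sequence was counted as exact 50-base stretches of GENCODE M21 transcripts. Alternatives were DESeq2 1.42.0, total-count scaling, no filter, a fit of the compared groups alone, a replicate block and leaving out each library.

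The members and lists were chosen with earlier results of these data known. Named genes were all mitochondrial genes, and, in the gland and bulk comparisons, the 2 largest rises and falls per complex among called genes with a group mean of at least 10 CPM, in the clone comparisons the 3 largest falls and rises. Genes named otherwise were chosen after their values were seen. Line and clone numbers pair the EM and DM libraries, since the labels give 1 line or clone the same number; the deviations of paired libraries from their group means correlated at 0.21, 0.06 and 0.12 in bulk lines 6, 7 and 8, and at 0.56 in the WT and 0.52 in the KO-labelled clones (with 2 clones both pairs give 1 value). Protein sequences were not used here, and 1 gene is not reported here by name.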

Additional observations from a re-analysis of the deposited data

How the results depend on the processing

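Scaling by total counts turned the gland comparisons. In EM against gland it gave 87 nuclear genes higher and 1 lower and 7 mitochondrial genes higher and 0 lower, with a nuclear median of 1.61, and in DM against gland 87 and 1, 7 and 0, and 1.47. In EM against gland the log2 fold changes became 0.94 (mt-Nd1), 0.18 (mt-Nd2), 0.41 (mt-Nd4), 1.53 (mt-Nd5), 1.49 (mt-Nd6), 0.35 (mt-Cytb), 1.78 (mt-Co1), 1.45 (mt-Co2), 0.69 (Ndufb11), 0.80 (Ndufs6), 1.28 (Sdhb), 1.48 (Uqcr11), 0.90 (Cox7b), 1.22 (Ndufa4), 0.18 (Atp5j), 0.89 (Atp5l), 1.94 (Cox6b1), 1.42 (Cox7a2), 1.26 (Cox7a2l) and 1.12 (Atp5g1). In DM against gland they became 0.73 (mt-Nd1), 0.27 (mt-Nd2), 0.58 (mt-Nd4), 1.71 (mt-Nd5), 1.88 (mt-Nd6), 0.21 (mt-Cytb), 1.71 (mt-Co1), 1.32 (mt-Co2), 0.46 (Ndufb11), 0.51 (Ndufa5), 1.06 (Sdhb), 1.64 (Sdha), 1.04 (Uqcr11), 0.85 (Cox7b), 0.98 (Cox7a2l), 0.28 (Atp5j), 0.97 (Atp5j2), 1.92 (Cox4i1), 1.86 (Cox6a1), 1.82 (Cox6b1), 1.30 (Cox7a2), 1.17 (Ndufa4), 0.98 (Atp5g1), 1.77 (Atp5g2) and 1.61 (Atp5g3). The shift of the median gene by construction moves all of these.

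In DM against EM in bulk organoids, total-count scaling gave 39 nuclear genes lower, beside 2601 of all 13713 genes tested. The main fit gave 23 and 1806. The median of all genes was -0.08 under that scaling. DESeq2 called 1832 of all genes lower in bulk organoids and 839 in KO-labelled clones in DM against EM. In WT clones a fit of the compared groups alone gave 7 nuclear genes lower. The mitochondrial genes lower were 7 with DESeq2, 6 without a filter and 1 with the compared groups alone. They were 6 with a replicate block and 5 with total-count scaling. Over all genes the lower ones in WT clones were 875 in the main fit, 1170 with DESeq2 and 1387 without a filter. They were 262 with the compared groups alone, 1528 with a replicate block and 1144 with total-count scaling. In KO-labelled against WT clones in EM, mitochondrial genes lower were 6 with DESeq2, 5 without a filter and 1 with the compared groups alone. In DM, nuclear genes higher were 1 with DESeq2 and 1 without a filter. Lower ones were 4 with DESeq2, 0 with the compared groups alone and 0 with total-count scaling. Over all genes, those lower in EM were 630 in the main fit, 1084 with DESeq2, 1456 without a filter and 694 with the compared groups alone. In DM they were 440, then 947 with DESeq2, 64 with the compared groups alone and 404 with total-count scaling. Those higher in DM were 341 in the main fit, 734 with DESeq2 and 1074 without a filter. The cause of these differences was not tested, except that fewer samples enter the fits of compared groups alone. The replicate block changed no other count of members by over 1.5 times. Over all genes it moved the counts higher and lower from 1372 and 875 to 2122 and 1528 in WT clones and from 706 and 487 to 1321 and 1017 in KO-labelled clones. It could not be used between KO-labelled and WT clones, whose numbers name different clones.

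Leaving out 1 library also changed the calls over all genes, so the ranges here are not read as particular to the members. With 1 library left out, nuclear genes higher and lower ranged from 10 to 17 and 52 to 54 in EM against gland. In DM against gland the ranges were 3 to 5 and 59 to 61. In DM against EM in bulk organoids they were 0 to 1 and 14 to 25. Lower nuclear genes ranged from 7 to 31 in WT clones, 0 to 6 in KO-labelled clones, 0 to 17 between genotypes in EM and 0 to 0 in DM. Mitochondrial genes ranged from 5 to 5 and 4 to 6 lower against the gland, 0 to 2 higher in bulk DM, 0 to 4 lower in WT clones and 0 to 1 lower between genotypes in EM.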
